A study of Homo sapiens with 2 samples.

Results

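The 10 entries described here were the brightest on the arrays apart from 1 other probe, and most of them were later withdrawn from the microRNA (miRNA) registry miRBase, or questioned, as pieces of longer structural RNAs. They were miR-1974, miR-1826, miR-1274b, miR-1274a, miR-1308, miR-1280, miR-720, miR-1260, miR-1975 and miR-1246, taken by their miRBase mature-sequence accessions from a table of 1001 probes. All 10 had a value on both arrays. Their names follow from a fixed list of accessions, since neither the deposited table nor the gene tables used as reference pair an accession with a name. They were chosen by their intensity on these arrays together with the later doubt about their origin, so their intensities and shares of the signal are a description, with no test.

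Mature miRNAs were profiled with 1-colour arrays, 1 per group. The first group was Huh7 cells 12 hours after 10 µM Y27632, a small-molecule kinase inhibitor, and the second was Huh7 cells labelled as control, with no vehicle or time of harvest stated. Huh7 is a cell line long established from a human hepatocellular carcinoma. Both cultures shared the line and the serum-containing medium, and total RNA of each was labelled with the fluorescent dye Hy5. With 1 array per group there was no replicate error, so no value below has a replicate SD or a p-value and every difference is one between 2 arrays. A difference in vehicle or harvest time cannot be told apart from the treatment, and in RNA from whole cultures fewer cells of a type and less RNA per cell cannot be told apart. The liver identity of the cells was not checked against marker miRNAs, because no source used here names their accessions.

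A canonical miRNA is cut from a hairpin transcript by the nucleases Drosha and Dicer and is loaded into an Argonaute protein, where its seed, near the 5′ end, pairs with target messenger RNAs. Cells also hold many short RNAs cut from transfer RNAs (tRNAs), ribosomal RNA (rRNA), Y RNAs and small nuclear RNAs (snRNAs), and stress is known to raise cleavage of tRNAs by nucleases such as angiogenin. Early sequencing surveys registered several such pieces as miRNAs. A probe made against one of them can also bind the far more abundant parent RNA, so its signal need not measure a miRNA.

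By their sequences as registered, miR-1974 matches a mitochondrial tRNA, miR-1826 an rRNA of the large ribosomal subunit, miR-1274a and miR-1274b the 3′ end of lysine tRNA, and miR-1308 the 5′ end of glycine tRNA. Likewise miR-1280 and miR-1260 resemble the 3′ end of leucine tRNA, miR-720 that of threonine tRNA, miR-1975 a Y RNA, and miR-1246 a stretch of the spliceosomal U2 snRNA. These parents are background knowledge, and no parent RNA was measured here.

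Of the 10 entries, 2 matched a mature miRNA of the RefSeq table (GRCh38.p14) by name, miR-1246 and miR-1260, whose name there is miR-1260a. Their sequences are shown for their length, their ends and the near copies a probe could also meet, each above a RefSeq miRNA of similar sequence, 5′ to 3′ with the seed (bases 2 to 8) in capitals:
hsa-miR-1246: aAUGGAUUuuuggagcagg
hsa-miR-1290: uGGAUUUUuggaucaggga
hsa-miR-1260a: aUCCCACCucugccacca
hsa-miR-1260b: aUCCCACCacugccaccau

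Both entries were short. The mature form of miR-1246 had 19 bases and that of miR-1260a 18, against a median of 22 over 2370 mature names in the table, of which 9.11% had at most 19 bases and 5.49% at most 18. miR-1260a ended in the letters CCA, the end that every mature tRNA carries, and 1.90% of the 2370 mature sequences (45) shared that ending. A shared ending is a description of the letters and does not identify a parent.

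Neither sequence stood alone. miR-1260a and miR-1260b had the same seed, which no other mature sequence in the table held, and over the 18 bases of miR-1260a they differed by the single substitution U9A, counted from the 5′ end with the base of miR-1260a first. miR-1246 and miR-1290 had different seeds but shared the 12-base run uggauuuuugga, at positions 3 to 14 of miR-1246 and 1 to 12 of miR-1290. That run was found in 2 of the 2370 mature sequences. Whether a probe told the near copies apart could not be examined, since probe sequences were not used here.

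The annotated hairpins were placed as follows on GRCh38.p14. MIR1246 lay on the minus strand at chr2:176600980-176601052 and overlapped no other RefSeq gene. MIR1260A lay on the plus strand at chr14:77266218-77266290 within the bounds of the protein-coding gene NGB, which encodes neuroglobin, an oxygen-binding protein of neurons. Exon and intron bounds were not used here. In the hairpins below the mature sequence is in capitals, at bases 11 to 29 of MIR1246 and 14 to 31 of MIR1260A:
MIR1246 hairpin: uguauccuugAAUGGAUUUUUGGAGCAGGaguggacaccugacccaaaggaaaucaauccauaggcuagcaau
MIR1260A hairpin: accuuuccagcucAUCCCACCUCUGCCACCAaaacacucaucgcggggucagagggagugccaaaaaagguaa

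The 10 entries carried most of the signal on both arrays. Their intensities summed to 99756 of 124946 on the Y27632 array (79.8%) and to 93268 of 119093 on the control array (78.3%). They were 1.63% of the 614 probes listed on the Y27632 array and 1.62% of the 619 listed on the control array. An intensity depends on the probe as well as on the RNA, so these are shares of signal, not of molecules.

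The entries themselves were unequal. miR-1974 and miR-1826, the mitochondrial tRNA and rRNA entries, together made up 65.4% of the 10 entries' signal on the Y27632 array and 68.5% on the control array. Without miR-1974 in either sum, the other entries still carried 69.2% of the Y27632 signal and 64.8% of the control signal.

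**Figure D1:**
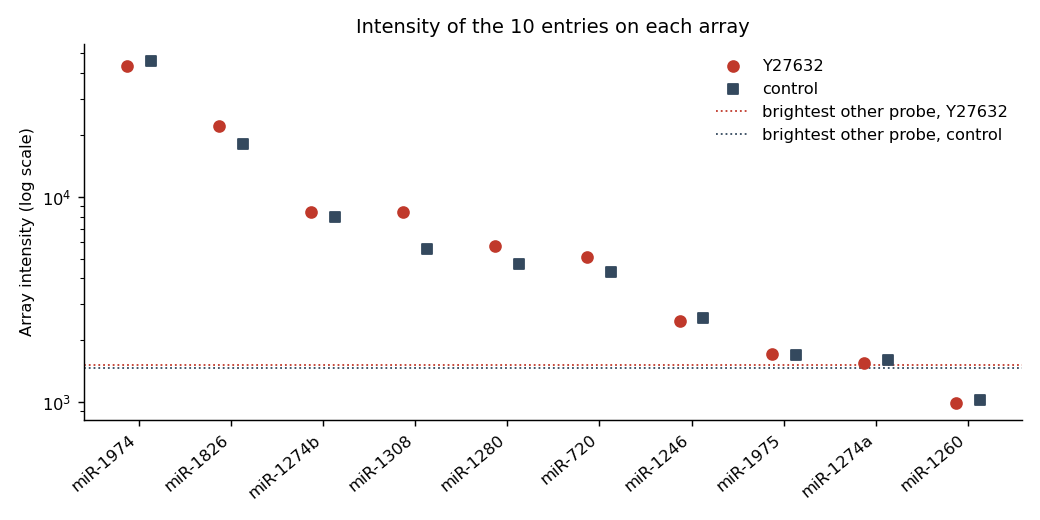
Intensity of each entry (vertical axis, arbitrary units, log scale) on the Y27632 array (circles) and the control array (squares), with 1 array per group and no error bars. Entries run from the brightest to the dimmest control value, and 9 of the 10 lie above the dotted lines that mark the brightest other probe (1520.1 on the Y27632 array and 1471.5 on the control array).

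At the dim end of the list, miR-1260 (MIMAT0005911) read 991.8 on the Y27632 array and 1024.8 on the control array, rank 11 on both. The only other probe brighter than it, MIMAT0009454, read 1520.1 and 1471.5 on the same arrays, rank 10 on both. The next probe, MIMAT0000074, read 965.1 on the Y27632 array and 935.0 on the control array, so the brightness of the list had no gap below its last entry. The median of the other listed probes was 6.0 on the Y27632 array and 5.8 on the control array. The 10 brightest of those other probes held 33.1% of the remainder on the Y27632 array and 33.3% on the control array. These are shares of the remainder and not of the whole array, and the entries were chosen by brightness, so they are not set against the shares of the entries.

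The 2 arrays were compared to ask whether these signals differed after Y27632. Among the 10 entries, 6 read higher on the Y27632 array and 4 lower, with ratios of Y27632 over control from 0.943 to 1.52. A ratio above 1 was also found for 48.6% of all 519 probes listed on both arrays and for 43.5% of the brighter 50% of them (260). By a 1.1-fold limit, chosen after values were seen, 4 were higher, miR-1308, miR-1826, miR-1280 and miR-720, and 6 lay within 1.1-fold of equality. The lowest ratio of these 4, that of miR-720, ranked 32 from the top of the 260, and 78.8% of all 519 ratios lay below it. On the deposited scale no entry was more than 1.1-fold lower. After centring on the summed signal and after lowess 1 entry was, miR-1974, and after quantile normalization 1 was, miR-1274b. Quantile normalization left 1 entry more than 1.1-fold higher, miR-1308.

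miR-1308 (MIMAT0005947), the glycine tRNA entry, read 8474.8 on the Y27632 array and 5564.3 on the control array, a ratio of 1.52 (log2 ratio 0.61). Its rank by intensity was 3 on the Y27632 array and 4 on the control array, and its share of the summed signal was 6.78% against 4.67%. It was the single entry at least 1.5-fold higher, and no entry was at least 1.5-fold lower. In the brighter 50% of probes (260, with a geometric mean intensity over both arrays of at least 7.57) 1.15% were at least 1.5-fold higher and 2.31% lower. Over all 519 probes listed on both arrays these were 8.67% and 5.20%. By its ratio miR-1308 ranked 3 from the top of the 260. Its log2 ratio was 0.54 after centring on the summed signal, 0.52 after a lowess correction and 0.23 after quantile normalization, each short of 1.5-fold.

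miR-1826 (MIMAT0006766), the rRNA entry, had the largest difference in intensity. It read 22037.8 on the Y27632 array and 18017.1 on the control array, a ratio of 1.22 (log2 ratio 0.29). Its share of the signal was 17.6% on the Y27632 array and 15.1% on the control array. rRNA is the main constituent of total RNA, and the extracts hybridised here were total RNA. Whether rRNA itself added to this signal was not tested.

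miR-1280 (MIMAT0005946), a leucine tRNA entry, read 5744.9 on the Y27632 array and 4728.7 on the control array, a ratio of 1.21 (log2 ratio 0.28). miR-720 (MIMAT0005954), the threonine tRNA entry, read 5098.7 on the Y27632 array and 4293.2 on the control array, a ratio of 1.19 (log2 ratio 0.25). These ratios were close to that of miR-1826, and both entries kept their rank, 5 and 6, on both arrays. The log2 ratios of miR-1826, miR-1280 and miR-720 were 0.16, 0.20 and 0.17 after lowess, and 0 after quantile normalization, since each had the same rank on both arrays. At a 2-fold limit no entry passed in either direction, against 0% higher and 0.385% lower in the brighter 50% of probes.

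miR-1974 (MIMAT0009449), the mitochondrial tRNA entry and the brightest probe on both arrays, read 43198.2 on the Y27632 array and 45829.6 on the control array. Its ratio of 0.943 (log2 ratio −0.09) was the lowest of the 10. The log2 ratio was −0.15 after centring on the summed signal, −0.25 after lowess and 0 after quantile normalization. Its share of the signal was 34.6% on the Y27632 array and 38.5% on the control array, a difference of −3.91 percentage points, because its own intensity was lower while the array's sum was 1.05 times as large.

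**Figure D2:**
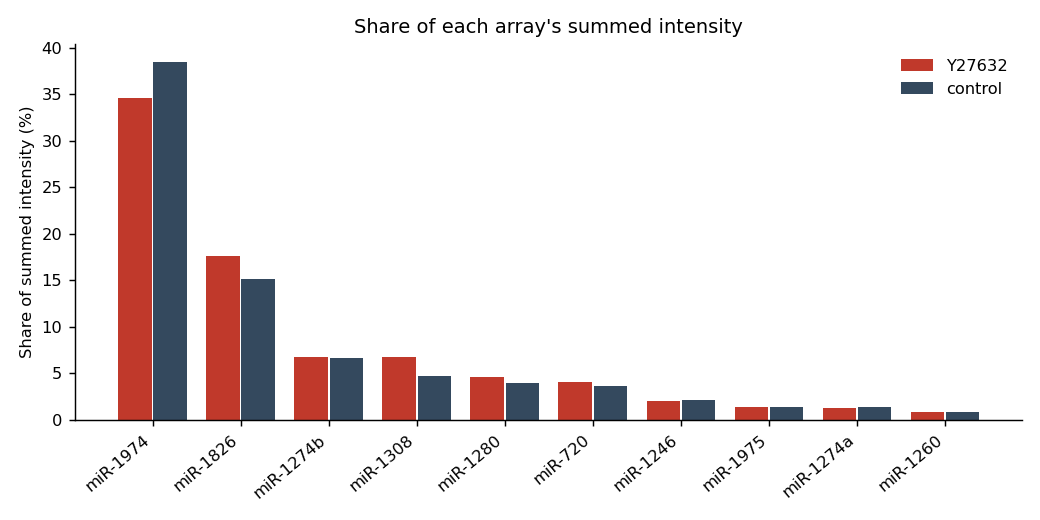
Share of each array's summed listed intensity (vertical axis, percent, from 0) carried by each entry, with the Y27632 array left of the control array and 1 array per group. miR-1974 takes 34.6% against 38.5%, while miR-1826 takes 17.6% against 15.1% and miR-1308 6.78% against 4.67%.

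miR-1274b (MIMAT0005938), a lysine tRNA entry, read 8469.0 on the Y27632 array and 7958.5 on the control array, a ratio of 1.06. Its partner miR-1274a (MIMAT0005927), a near-identical stretch of the same kind of tRNA, read 1553.7 on the Y27632 array and 1603.6 on the control array, a ratio of 0.969. The direction of miR-1274b was not stable: its log2 ratio of 0.09 became −0.23 after quantile normalization and −0.005 after lowess.

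Of the entries that resemble leucine tRNA, miR-1260 had a ratio of 0.968 (log2 ratio −0.05) and miR-1280 one of 1.21, and both were at 0 on the log2 scale after quantile normalization. Without replicates, whether entries of the same kind of tRNA differ in ratio could not be tested.

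The remaining entries were nearly level. miR-1975 (MIMAT0009450), the entry from the Y RNAs, which are bound by the protein Ro60, read 1714.5 on the Y27632 array and 1689.0 on the control array, a ratio of 1.02. Its log2 ratio of 0.02 turned to −0.05 after centring on the summed signal and −0.02 after lowess. miR-1246 (MIMAT0005898), the U2 snRNA entry, read 2472.4 on the Y27632 array and 2559.3 on the control array, a ratio of 0.966.

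By kind of parent, the 6 entries resembling cytosolic tRNAs summed to 30333 on the Y27632 array and 25173 on the control array, 24.3% and 21.1% of the signal and a ratio of 1.20. Of these, 4 were higher on the Y27632 array and 2 lower. miR-1308 carried much of that gap: without it, the other 5 summed to 21858 on the Y27632 array and 19609 on the control array, a ratio of 1.11. With the mitochondrial entry included, the 7 tRNA entries summed to 73531 on the Y27632 array and 71003 on the control array, a ratio of 1.04.

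The larger sum of the Y27632 array lay in the 10 entries. Their sum was higher there by 6488, a ratio of 1.07, while the sum of all other listed probes was 25190 on the Y27632 array and 25825 on the control array, a ratio of 0.975. The 6 higher entries added 9289, of which miR-1826 gave 4021 and miR-1308 gave 2911. The 4 lower entries differed by −2801 in all, of which miR-1974 gave −2631. Without miR-1974 the other entries' sum had a ratio of 1.19, and without miR-1308 the ratio of the remaining sum was 1.04.

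The ratios were set beside those of other bright probes, to see how far such ratios scatter on this pair of arrays. There were 51 other probes with a geometric mean intensity above 100, and their ratios ran from 0.784 to 1.46 with a median of 0.974 and an SD of log2 ratios across probes of 0.16. Of these 51, 3 were more than 1.1-fold higher and 13 more than 1.1-fold lower, against 4 and 0 of the 10 entries. The limits of 100 and of 1.1-fold were both chosen after values were seen, and no 1.1-fold count was made over the wider sets of 260 and 519 probes. A single one of the 51 reached the ratio of miR-720, at 133.6 on the Y27632 array and 91.5 on the control array (ratio 1.46). Such ratios were more common in wider sets, which hold dimmer probes. By ratio miR-1826, miR-1280 and miR-720 ranked 27, 29 and 32 from the top of the brighter 50% (260 probes). Of the ratios of all 519 probes, 80.3%, 79.6% and 78.8% lay below theirs. The ratio of miR-1308 was above that of all 51 on the deposited scale. These probes differ in brightness from the entries and are not replicates, so their scatter is a description, not an error. After quantile normalization 8 of the 51 were more than 1.1-fold higher and 9 lower, against 1 and 1 of the entries. After lowess these counts were 5 and 11 of the 51, against 4 and 1 of the entries. The next 10 probes in brightness, at 548.5 to 1520.1 on the Y27632 array, had ratios from 0.784 to 1.08.

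**Figure D3:**
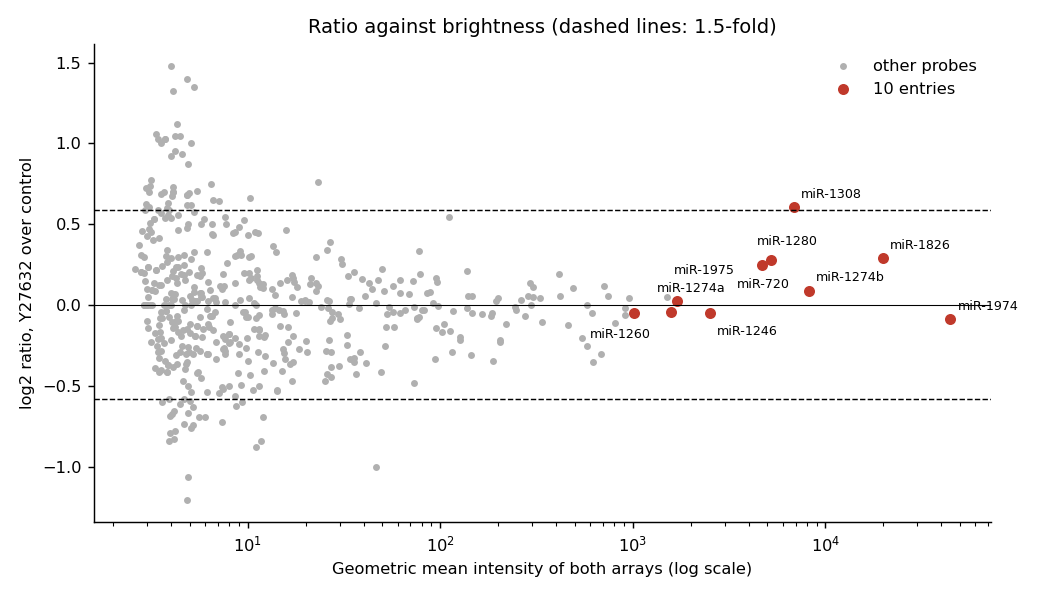
Log2 ratio of Y27632 over control (vertical axis) against the geometric mean intensity of both arrays (horizontal axis, log scale) for the 519 probes listed on both, with the 10 entries named and dashed lines at 1.5-fold. Scatter is wide among dim probes and narrow among bright ones, and miR-1308 is the single entry past a dashed line.

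The median log2 ratio of the 10 entries was 0.06, beside 0.00 over all 519 probes and −0.03 in the brighter 50%. It was −0.01 both after centring on the summed signal and after lowess, so no direction is given for the entries as a group. No probe outside the list was brighter than 1520.1, so for the brighter entries a trend with intensity and a property of these RNAs cannot be told apart.

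**Figure D4:**
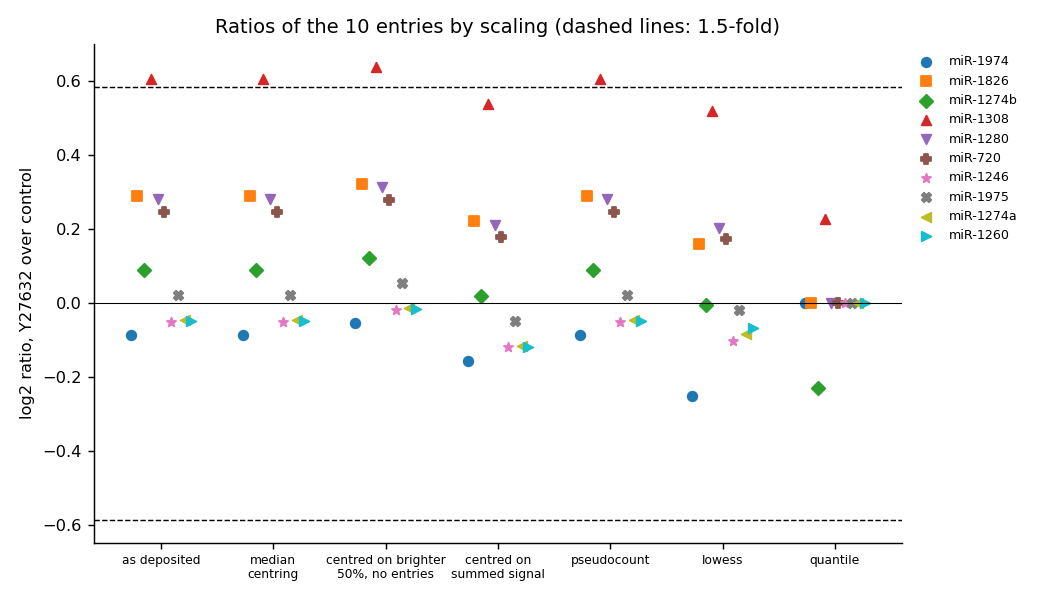
Log2 ratio of Y27632 over control (vertical axis) for each entry under the deposited scale and 6 alternatives (horizontal axis), with dashed lines at 1.5-fold. miR-1308 is highest under every scaling shown, from 0.23 to 0.64, and quantile normalization sets the 8 entries that had the same rank on both arrays to 0.

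Nearby accessions were mostly dim in one stretch and bright in another. Accession numbers in miRBase largely follow the date of registration, and 7 of the entries lie in the run of 57 probes from MIMAT0005898 to MIMAT0005954. Of the 50 other probes in that run, 22 were listed on both arrays, with medians of 6.3 on the Y27632 array and 4.85 on the control array. The highest of them read 76.4 on the Y27632 array, and the highest control value was 68.9. Each entry of that run read higher, which follows from the choice of the entries by intensity and is no result about the registry.

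The other stretch differed. Around miR-1974 and miR-1975, the run of 7 probes from MIMAT0009448 to MIMAT0009454 held 5 others, all listed on both arrays, and 4 of these were above 100 on the control array. Their medians were 166 on the Y27632 array and 212 on the control array. Their ratios of Y27632 over control ran from 0.694 to 1.03.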

How the data were processed

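Per the labels' protocols, total RNA isolated with ISOGEN was labelled with Hy5 using an Exiqon miRCURY kit. The authors deposited 1 array intensity per probe and sample, judged linear from the range of values. Background correction, normalization and detection limit are not stated in the sources at hand, and 387 Y27632 and 382 control cells are empty. Scanner files were not used here, so background and saturation could not be examined. Precision is limited by the number of arrays.

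Log2 ratios of Y27632 over control were computed without rescaling or pseudocount. Shares were taken of each array's summed listed intensities. The limit was 1.5-fold. With 1 array per group no test was made. The named probes were all 10 entries and any other probe brighter than the dimmest of them. The next probe, MIMAT0000074, the accession runs, and the limits of 1.1-fold and of an intensity of 100 were chosen after values were seen. A list of 18 further withdrawn or questioned entries and the cell marker lists were not evaluated, since 0 reference rows held an accession. The entries and lists were chosen with earlier results of these data known. The ratio rule was run on simulated data with planted 2-fold changes, larger than that of any entry. This checked the code and gives no error rate for these arrays. Alternatives were 4 scalings by centring or normalization besides lowess (fraction 0.4) and a pseudocount of 3, other sums for the shares, and a lower and a higher (2-fold) limit. Python 3.11.15, numpy 2.4.6, pandas 2.3.3, statsmodels 0.14.6 and matplotlib 3.10.9 were used. Sequences are RefSeq's.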

Additional observations from a re-analysis of the deposited data

How the results depend on the processing

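The 10 entries carried 79.8% of the Y27632 signal and 78.3% of the control signal. These shares were 80.1% and 78.5% over probes listed on both arrays, 69.2% and 64.8% without the brightest probe, 79.3% on both arrays after quantile normalization, and 80.9% and 79.2% after subtraction of each array's lowest listed value. Quantile normalization gives both arrays the same set of values, and the entries as a set held the same ranks on both. Their equal shares after it were therefore fixed in advance. The median log2 ratio of 0.06 (0.0557) turned to −0.014 after centring on the summed signal and −0.011 after lowess. The count of entries at least 1.5-fold higher was 1, and 0 after centring on the summed signal, after quantile normalization, after lowess and at a 2-fold limit. It stayed at 1 in the other alternatives, and the count lower was 0 in all of them. The count of entries with a ratio above 1 was 6, but 5 after centring on the summed signal, 4 after lowess and 1 after quantile normalization, which by its construction gives equal values to the 8 entries of equal rank. In the brighter 50% of probes, 43.5% had a ratio above 1 as deposited. That share was 30.8% after centring on the summed signal, 52.7% after lowess and 47.3% after quantile normalization. Of 60 single-entry values, 4 changed sign: miR-1274b at −0.228 after quantile normalization and −0.0047 after lowess, and miR-1975 at −0.0477 after centring on the summed signal and −0.0181 after lowess. A further 5 moved by more than 0.16, the SD of log2 ratios over 51 other bright probes, which is no replicate error: miR-1974 to −0.25 after lowess, and miR-1308 to 0.23 and miR-1826, miR-1280 and miR-720 to 0 after quantile normalization. Median centring moved nothing, since the median was already 0, and says nothing about stability. With 1 array a group, no replicate was left out in turn. No paired analysis was possible because the labels give 1 sample a group.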
